A study of Mus musculus with 2 samples.

Results

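The 10 aldehyde dehydrogenase genes Aldh1a1, Aldh1b1, Aldh2, Aldh3a1, Aldh3a2, Aldh4a1, Aldh6a1, Aldh7a1, Aldh9a1 and Aldh18a1 were examined in AML12, a hepatocyte line from mouse liver that is not of tumour origin. They were taken by name as members of this gene family, and are 10 of the 35275 genes in the table. RNAseq compared untreated control cells with cells driven into premature senescence by hydrogen peroxide on 6 successive days. Each exposure lasted 1 h and was followed by 23 h of recovery, and the dose was 1 mM at the start and 750 μM from then on. Both conditions came from the same line, labelled as liver of a male CD-1 mouse aged 3 months, and both were grown with dexamethasone and an insulin, transferrin and selenium supplement. AML12 cells derive from mice that carry a human TGF-alpha transgene, so control cells carry it too. RNA of 3 samples was pooled into 1 library per condition, so there was no replicate check and p-values are not given. A ratio sets 1 library against another rather than condition against condition.

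Aldehyde dehydrogenases oxidise reactive aldehydes, from ethanol, retinal, lipid peroxidation and amino acid breakdown, to carboxylic acids with NAD or NADP as the electron acceptor. Liver is the main site of acetaldehyde clearance, which rests largely on the mitochondrial enzyme encoded by Aldh2, and cytosolic ALDH1A1 makes retinoic acid from retinal. Some family members serve a single pathway, and Aldh18a1 encodes an enzyme that runs the other way, reducing glutamate to the precursor of proline.

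In the senescent library, 8 of the 10 genes were lower than in the control library and 2, Aldh18a1 and Aldh2, were higher. Aldh18a1 was 2.62-fold higher, Aldh3a1 was 3.91-fold lower, and Aldh1b1 had 16 control reads but 1 senescent read. The other lower genes, Aldh1a1, Aldh3a2, Aldh4a1, Aldh6a1, Aldh7a1 and Aldh9a1, had log2 ratios from -0.72 to -0.45. The median log2 ratio of the 10 genes was -0.54, against -0.02 over the 14383 genes with at least 10 reads over both libraries. Ratios are of TMM-scaled counts, senescent over control, and the interval given with each is a 95% Clopper-Pearson interval. It takes in counting error and nothing else, so spread between biological samples is left out. The interval also treats reads as independent. Where reads are PCR copies they are not, and the interval is then too narrow even for counting error. In a bulk library, fewer cells with a transcript and less of it per cell cannot be told apart.

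The study took genes past 1.5 on the log2 scale that also met a p-value limit, which was not applied here. Here a gene was counted as changed when its log2 ratio passed 1.5 in either direction and its interval left out 0. By that rule 2 of the 10 genes, Aldh3a1 and Aldh1b1, were counted lower, beside 5.6% of all genes tested, and none was counted higher, beside 2.71%. At a limit of 1 the same 2 genes were lower, beside 9.98%, and 1 gene, Aldh18a1, was higher, beside 5.09%. Without a limit of size the interval lay below 0 for 8 of the 10 genes, beside 34.6% of all genes, and above 0 for 2, beside 34%. These shares over all genes tested are also the background for the counts in the gene lists below. With total counts in place of TMM the median of all genes shifted by -0.11, and every one of the 10 genes kept its direction under each scaling tried.

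The control library held 28021941 reads and the senescent library 25738075. Hepatocyte identity was read from 13 marker genes, all of them with at least 10 reads. Among these, 2 were counted lower, Alb at a log2 ratio of -3.23 and Apoa1 at -3.13, and Cebpa at -1.44 and Serpina1a at -1.42 passed the limit of 1. The regulator Hnf4a stood at 0.14 and Ttr at -0.91, while Apob, with 22158 and 25094 reads, was higher at 0.41. The hepatocyte list had a median of 0.02 and a summed level of 8680 and 10295 CPM, of which the keratin gene Krt8 supplied 4106 and 5838 CPM and Krt18 1393 and 2457 CPM. Of 5 macrophage markers, 2 were counted higher, Ptprc with 27 and 76 reads and Csf1r with 15 and 40, while Adgre1 was at 0 in both libraries and the summed level of the list was 2.65 CPM in control cells and 6.29 in senescent cells. Of 7 fibroblast and stellate markers 1, Col1a1 with 21 and 1 reads, was counted lower, and Col1a2, Col3a1 and Lum were at 0 in both. These markers summed to 0.928 and 0.323 CPM, and endothelial markers to 0.138 and 0.403 CPM, with Tie1 at 0 in both. Of 4 cholangiocyte markers none was counted, and their summed levels were 1023 and 994 CPM. Krt19 was abundant in both libraries, with 22885 and 19177 reads. Krt7 was lower at -1.43, while Sox9, with 3602 and 4454 reads, was higher at 0.54 (0.47 to 0.60). The part of these markers in the aldehyde dehydrogenase values was not tested. Cdkn1a, the gene of the cell cycle inhibitor p21, was higher at 0.90, while Trp53 stood at 0.26 and Cdkn2a at -1.32. The proliferation genes Top2a and Mki67 stood at 0.18 and -0.79, and Lmnb1 at -0.30, so that none of these 6 genes passed 1.5.

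Levels of different genes were compared as RPKM, which is reads per kb of exon and per unit of library size, with library sizes scaled by TMM. Aldh1a1 was the most abundant of the 10 genes in both libraries, at 161 in control cells and 118 in senescent cells. Next in the control came Aldh9a1 at 55.2 and Aldh2 at 51.3, followed by Aldh3a2 at 24.8, Aldh18a1 at 16.2, Aldh6a1 at 14.9, Aldh7a1 at 11.5 and Aldh4a1 at 4.51. Aldh3a1, at 1.27, and Aldh1b1, at 0.239, had the lowest levels. In the senescent library Aldh2 came next to Aldh1a1 at 60.3 and was followed by Aldh18a1 at 42.5, so that Aldh18a1 passed both Aldh9a1 (37.6) and Aldh3a2 (18.2). No neighbours in either order had overlapping exact Poisson intervals. Replicate spread is unknown, however, and with the length of the longest transcript in place of all exon bases 4 genes of the control order traded places, Aldh9a1 with Aldh2 and Aldh18a1 with Aldh6a1. The order in the senescent library did not depend on that choice.

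**Figure D1:**
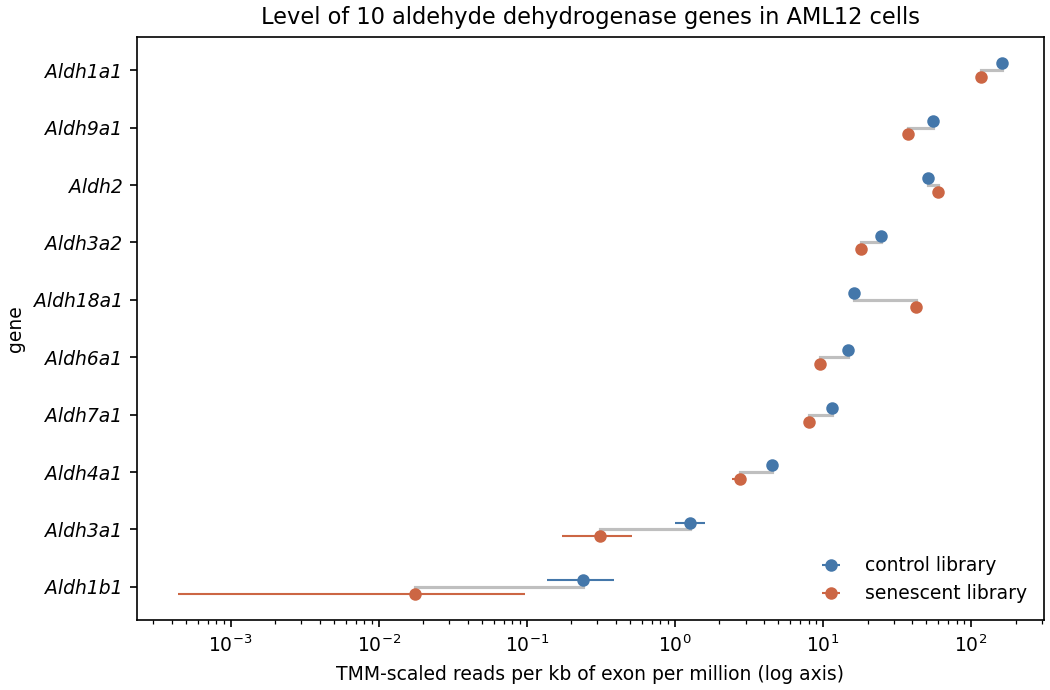
Level of each of the 10 genes in the control and the senescent library (1 library each), as TMM-scaled RPKM on a log axis; bars are exact 95% Poisson intervals and cover counting error. Aldh18a1 went from 16.2 to 42.5 and Aldh2 from 51.3 to 60.3, and the senescent point lies to the left of the control point for the remaining 8 genes.

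The summed level of the 10 genes was 341 in control cells and 297 in senescent cells, a ratio of 0.870 (95% counting interval 0.858 to 0.882). Without Aldh1a1 the sums were 180 and 179, a ratio of 0.996. In that remainder the higher levels of Aldh18a1 and Aldh2 offset the lower levels of the other genes. The ratio without Aldh1a1 was computed with TMM scaling alone. The shares of the genes in the sum differed between the libraries. Aldh1a1 made up 47.2% of it in control cells and 39.6% in senescent cells. Aldh2 went from 15.0% to 20.3% and Aldh18a1 from 4.76% to 14.3%, while Aldh9a1 went from 16.2% to 12.7%.

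**Figure D2:**
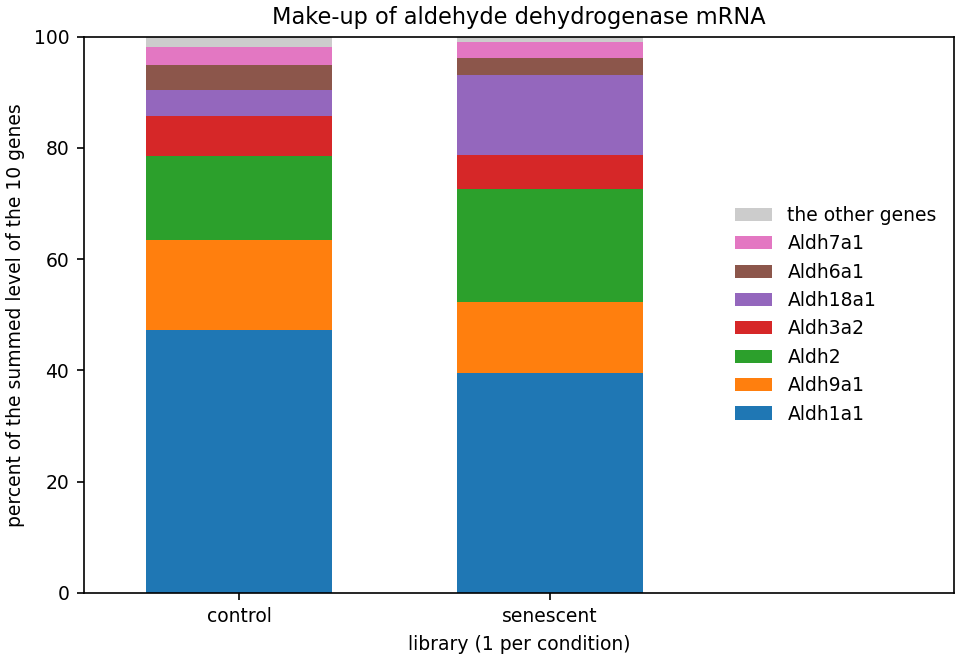
Share of each gene in the summed level of the 10 genes (percent of TMM-scaled RPKM) in the control and the senescent library; the grey part holds Aldh4a1, Aldh3a1 and Aldh1b1. Aldh18a1 widened from 4.76% to 14.3% and Aldh1a1 narrowed from 47.2% to 39.6%.

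Aldh1a1 (ENSMUSG00000053279) lies on chromosome 19 of GRCm38 from 20492715 to 20643465, on the forward strand. Its 23129 control reads went with 14390 senescent reads, a log2 ratio of -0.45 (-0.49 to -0.42). The gene has a tandem copy, Aldh1a7 (ENSMUSG00000024747, chromosome 19 from 20692953 to 20727562, reverse strand), a rodent paralog that is not among the 10. Aldh1a7 had 2759 control and 891 senescent reads, at -1.40 (-1.51 to -1.29), so the copy stood further down than Aldh1a1 in this pair of libraries. Within each library, which needs no scaling, Aldh1a7 took 10.7% of the reads of both genes in the control (Wilson 95% interval 10.3 to 11.0) and 5.83% in the senescent library (5.47 to 6.21).

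Whether reads of the copies can be told apart is a matter of sequence. Their coding sequences are equally long, 1503 bases, and differ at 126 of them when set base against base. The longest identical coding stretch runs to 100 bases, and 6.06% of the 50-base words in Aldh1a1 transcripts occur in Aldh1a7. Of 100-base words only 1 is shared. The longest coding exon, exon 9, is shown because it separates the copies well. In Aldh1a1 it lies at chr19:20630666-20630850 on the forward strand and in Aldh1a7 at chr19:20708150-20708334 on the reverse strand. Capitals mark the 29 of 185 bases at which the copies differ in the GENCODE M21 transcripts.
Aldh1a1 exon 9: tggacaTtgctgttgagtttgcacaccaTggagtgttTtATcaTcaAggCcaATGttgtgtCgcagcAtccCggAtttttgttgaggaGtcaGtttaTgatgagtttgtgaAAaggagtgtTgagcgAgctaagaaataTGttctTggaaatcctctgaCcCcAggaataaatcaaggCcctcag
Aldh1a7 exon 9: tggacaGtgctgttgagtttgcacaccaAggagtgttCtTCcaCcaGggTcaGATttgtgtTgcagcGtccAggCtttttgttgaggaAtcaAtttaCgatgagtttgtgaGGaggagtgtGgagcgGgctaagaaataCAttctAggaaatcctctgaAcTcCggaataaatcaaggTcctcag
No stretch of over 21 bases in this exon is common to both, so a longer read within it can be told from the other copy. The length of the reads and the treatment of reads that fit both copies are not given in the sources used here.

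The promoters of the tandem copies are shown because the log2 ratios of the genes differed. Each entry holds 250 bases before and 50 after the start site in RefSeq on GRCm38.p6, at chr19:20601718-20602017 on the forward strand for Aldh1a1 (the downstream one of its 2 listed starts) and at chr19:20727507-20727806 on the reverse strand for Aldh1a7. Capitals mark CCAAT and TATAAA, searched on both strands.
Aldh1a1 promoter: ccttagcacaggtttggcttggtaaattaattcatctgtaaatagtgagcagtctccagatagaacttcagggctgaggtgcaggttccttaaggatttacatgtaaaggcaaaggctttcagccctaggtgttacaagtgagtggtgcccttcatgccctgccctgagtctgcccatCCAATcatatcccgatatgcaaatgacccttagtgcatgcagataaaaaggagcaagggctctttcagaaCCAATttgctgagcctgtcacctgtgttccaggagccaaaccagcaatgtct
Aldh1a7 promoter: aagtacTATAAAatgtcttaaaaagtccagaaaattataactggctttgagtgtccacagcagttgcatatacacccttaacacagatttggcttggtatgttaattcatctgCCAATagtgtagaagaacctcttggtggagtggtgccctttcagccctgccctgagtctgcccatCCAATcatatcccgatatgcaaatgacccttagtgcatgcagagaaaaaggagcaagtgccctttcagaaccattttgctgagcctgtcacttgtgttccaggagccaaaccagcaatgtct
Over the last 150 bases the promoters are identical at 142 positions, and over the last 250 bases at 164. Both hold CCAAT at 2 places, of which 1 lies within the shared stretch in the same position. TATAAA occurs at 1 place in Aldh1a7, near the far end, and not in Aldh1a1. CCAAT is present in 37.4% and TATAAA in 13.6% of the 32851 mouse promoters of this length, and a match of letters is not a bound site.

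Retinal is the best known substrate of ALDH1A1, and 19 genes of the retinoic acid pathway were listed, of which 15 had at least 10 reads. Among them 1 was counted higher and 1 lower, and their median was -0.33. Rdh10, which makes retinal from retinol, was higher with 1039 control and 7424 senescent reads, at 3.07 (2.97 to 3.16). Dhrs3, which turns retinal back into retinol, was lower with 1507 and 332 reads, at -1.95 (-2.13 to -1.78). The gene that supplies the substrate and the gene that removes it thus moved in opposite directions, while Aldh1a1 stood at -0.45. Past the limit of 1 came also Dhrs9 at 1.21 and Stra6, the retinol uptake receptor gene, at -1.28. So did Tgm2, a known retinoic acid target, at -1.49 with 22696 and 6912 reads. Nuclear receptor genes of the list were added after their values were seen. Rara stood at 0.46, Rarg at 0.43, Rxrb at 0.13 and Rxra at -0.57, and Rarb had 6 and 14 reads (1.31, -0.02 to 3.12). Whether retinoic acid itself differed was not tested. Rbp4, which encodes the retinol carrier of plasma, stood at -0.70. Aldh1a2 and Aldh1a3 encode the other enzymes that make retinoic acid. Aldh1a2 had 1 control read and no senescent read, and Aldh1a3 had 3 and 15 reads, at 2.19 (0.73 to 4.98).

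Aldh3a1 (ENSMUSG00000019102, chromosome 11 from 61207537 to 61218421, forward strand) encodes a cytosolic enzyme for aromatic and lipid peroxidation aldehydes that is inducible through the aryl hydrocarbon receptor. Its 72 control reads went with 15 senescent reads (-1.97, -2.94 to -1.22). The few reads leave the size of the difference uncertain by more than a log2 unit. Its neighbour Aldh3a2 (ENSMUSG00000010025, from 61223417 to 61267464, reverse strand), which encodes the membrane-bound fatty aldehyde dehydrogenase, had 4047 and 2532 reads (-0.45, -0.52 to -0.37). Aldh3a1 supplied 1.75% of the reads of this neighbouring pair in the control (Wilson 95% interval 1.39 to 2.20) but 0.589% in the senescent library (0.357 to 0.969). Transcripts of the neighbours share no 50-base word with each other or with any other annotated gene.

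Among 10 genes of the aryl hydrocarbon receptor group, 9 had at least 10 reads, and 3 were counted lower, beside 5.6% of all genes tested. The list median was -0.19. Cyp1b1, a cytochrome P450, had 237 and 45 reads (-2.14, -2.66 to -1.70). Ugt1a6a and Ugt1a6b, whose transcripts come from 1 shared locus and may trade reads, were at -1.85 and -1.55. Other genes of the group were higher. Tiparp was higher at 1.05, Nqo1, with 9 and 22 reads, at 1.41 (0.34 to 2.82), and the receptor gene Ahr and its partner Arnt stood at 0.15 and 0.34. Cyp1a1, the textbook target, had 213 and 159 reads (-0.19, -0.50 to 0.11) and was picked out after its value was seen.

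Substrates of the Aldh3a2 enzyme arise from long-chain alcohols, phytol and sphingosine phosphate. Of 7 genes that supply such aldehydes, 1 was counted lower, Phyh, the peroxisomal phytanoyl-CoA hydroxylase gene, with 1127 and 305 reads (-1.65, -1.84 to -1.47). Hacl1, the next enzyme of that route, had 164 and 60 reads and stood at -1.21. Sgpl1, whose product cleaves sphingosine phosphate into a fatty aldehyde, was higher at 0.81 (0.74 to 0.87), and Far1 and Sphk2 stood at -0.14 and 0.09. The median of these genes was -0.41.

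Aldh2 (ENSMUSG00000029455, chromosome 5 from 121566027 to 121593824, reverse strand) had 7642 and 7663 reads. Scaling to the smaller senescent library gave a log2 ratio of 0.23 (0.19 to 0.28), and total-count scaling a ratio of 0.13. It was thus the one abundant oxidising member that was not lower. For each Aldh1a1 read there were 0.330 Aldh2 reads in control cells and 0.533 in senescent cells. Aldh1b1 (ENSMUSG00000035561, chromosome 4 from 45799022 to 45804604, forward strand) encodes a second mitochondrial enzyme for acetaldehyde and retinal, whose coding sequence is 70.2% identical to that of Aldh2. It had 16 control reads and 1 senescent read (-2.92, -9.16 to -1.08). With so few reads the ratio follows the prior count and the scaling, from -3.63 to -1.70 over those tried.

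Acetaldehyde is made by alcohol dehydrogenases, and of 6 such genes 3 had at least 10 reads, none of them counted, with a median of -0.45. Adh5, the class III enzyme gene that clears formaldehyde, had 5104 and 3772 reads (-0.21), Adh7 had 506 and 315 (-0.45), and Adh1, the main hepatic form, had only 35 and 19. Of 17 other genes for enzymes that reduce, conjugate or oxidise aldehydes, 16 had at least 10 reads. Of these, 12 had an interval below 0, beside 34.6% of all genes tested, but 1 alone was counted lower, beside 5.6%. That was Adhfe1, a mitochondrial hydroxyacid dehydrogenase gene, with 300 and 64 reads (-1.98, -2.41 to -1.61). Aox3, an aldehyde oxidase gene, had 0 and 12 reads and was at least 4.69-fold higher when set against a floor of 3 control reads. Cbr3 stood at -1.24, and among the most abundant genes of the list Akr1a1 stood at -0.04, Akr1b3 at -0.89 and Gsta4 at -0.19. The median of the list was -0.43.

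Aldh18a1 (ENSMUSG00000025007, chromosome 19 from 40550257 to 40588463, reverse strand) encodes pyrroline-5-carboxylate synthase, which makes the precursor of proline and ornithine from glutamate in mitochondria. It had 1923 control and 4291 senescent reads, at 1.39 (1.31 to 1.47), and 96.7% of the genes tested had a lower ratio. Aldh4a1 (ENSMUSG00000028737, chromosome 4 from 139622866 to 139649690, forward strand) encodes the enzyme that takes the same intermediate back to glutamate. It had 644 and 333 reads (-0.72, -0.92 to -0.53), and 17.0% of the genes tested were lower. The genes for making and for breaking down proline were therefore shifted in opposite directions. For each Aldh4a1 read there were 2.99 Aldh18a1 reads in control cells and 12.9 in senescent cells, a comparison that needs no scaling. Aldh4a1 shares 32.5% of its exon bases with Gm21969, a gene model on the same strand that had 0 reads in both libraries, so reads in that stretch may have been left uncounted.

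Of 7 further genes of proline metabolism, 1 was counted lower, and the median was -0.29. The gene counted was Prodh2, a hydroxyproline dehydrogenase gene, with 320 and 38 reads (-2.81, -3.37 to -2.36). Oat, whose enzyme links ornithine to the same intermediate, was lower with 5593 and 2324 reads, at -1.04 (-1.11 to -0.97), and Glud1 stood at -0.29. Pycr1, which encodes a reductase that finishes proline synthesis and was picked out after its value was seen, had 236 and 334 reads (0.73, 0.49 to 0.98). None of these 7 proline genes matched the size of the Aldh18a1 difference in the higher direction.

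The promoter of Aldh18a1 is shown because this gene was the furthest above the other 9. It lies at chr19:40588414-40588713 on the reverse strand of GRCm38.p6, again with 250 bases before and 50 after the RefSeq start, and capitals mark the E-box CACGTG.
Aldh18a1 promoter: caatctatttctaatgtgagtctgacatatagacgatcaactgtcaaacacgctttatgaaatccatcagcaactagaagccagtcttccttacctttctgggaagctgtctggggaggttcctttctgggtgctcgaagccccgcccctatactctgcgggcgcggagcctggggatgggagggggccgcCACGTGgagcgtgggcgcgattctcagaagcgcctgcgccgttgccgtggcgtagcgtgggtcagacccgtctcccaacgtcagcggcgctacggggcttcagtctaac
The E-box was found in 2 of 9 promoter entries that RefSeq gave for 7 of the 10 genes, those of Aldh18a1 and Aldh3a2, and in 7.15% of all 32851 promoters. The letters GCGTG, the core bound by the aryl hydrocarbon receptor, stood at 3 places in the Aldh18a1 promoter, none overlapping the E-box, and in 5 of the 9 entries, against 32.4% of all promoters. TGACNNNGC, the core of the antioxidant response element, was found in 1 entry, that of Aldh9a1, and in 12.4% of all promoters. The Aldh18a1 window held 23 CG pairs and the Aldh1a1 window 1, with 58.3% and 47% of bases G or C. Entries for Aldh2, Aldh3a1 and Aldh7a1 were not matched.

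Aldh6a1 (ENSMUSG00000021238, chromosome 12 from 84430717 to 84451004, reverse strand) encodes the mitochondrial methylmalonate semialdehyde dehydrogenase of valine and thymine breakdown. It had 2501 and 1369 reads (-0.64, -0.74 to -0.54). Bbof1, on the other strand, covers 18.6% of its exon bases but had only 13 and 12 reads. Aldh7a1 (ENSMUSG00000053644, chromosome 18 from 56509687 to 56572951, reverse strand) encodes the enzyme that oxidises the semialdehyde of lysine breakdown. It had 1734 and 1030 reads (-0.52, -0.63 to -0.41) and overlaps Phax on the other strand over 5.79% of its exon bases. Phax had 1095 and 1176 reads. Both genes of amino acid breakdown were lower by a like amount, and the use of strand in counting is not given in the sources used here.

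Of 19 other genes for lysine, valine and pyrimidine breakdown, 13 had at least 10 reads. Of these, 11 had an interval below 0, beside 34.6% of all genes tested. At the limit of 1.5, 1 was counted lower, beside 5.6%, namely Aadat with 30 and 5 reads (-2.16, -4.08 to -0.98). Of the genes that carry propionyl-CoA onward from valine, 3 passed the limit of 1, Pcca at -1.08, Pccb at -1.04 and Mcee at -1.12, and Mut stood at -0.94. The earlier valine genes ranged from -0.997 for Hibch to 0.07 for Echs1, with Bckdhb at -0.56, Acad8 at -0.48, Hibadh at -0.40, Dbt at -0.23 and Bckdha at -0.02. Mut, Hibch, Bckdhb, Acad8 and Dbt were added after their values were seen. The median of the list was -0.66, next to -0.64 for Aldh6a1 and -0.52 for Aldh7a1. It was taken mainly over valine genes, so it says little of lysine or pyrimidine breakdown. Besides Aadat, the lysine genes Dhtkd1 and Aass had 73 and 39 reads and 0 and 4 reads. The pyrimidine genes Dpyd, Dpys and Upb1 each had under 10 reads.

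Aldh9a1 (ENSMUSG00000026687, chromosome 1 from 167349991 to 167368532, forward strand) encodes the enzyme for aminoaldehydes of carnitine synthesis and polyamine breakdown. It had 5434 and 3151 reads (-0.56, -0.62 to -0.49). Of 11 genes listed for carnitine, polyamine and amine metabolism 10 were matched and 8 had at least 10 reads, none of them counted, with a median of -0.26. Slc22a5, which encodes the carnitine transporter, was lower at -1.05 (-1.22 to -0.88), with 1004 and 414 reads. Sat1 and Maoa, which feed amine and polyamine oxidation, stood at 0.05 and -0.20, and Shmt2 was higher at 0.92. Bbox1, the last enzyme of carnitine synthesis, was at 0 in both libraries.

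The family holds 11 further genes by symbol, of which 7 had at least 10 reads, with a median of -0.58. Among these, 1 was counted higher, Aldh1a3, with the few reads given above, and none was counted lower, though Aldh1a7 passed the limit of 1. Aldh1l1, a cytosolic enzyme of formyl-folate, had 3170 and 1805 reads (-0.58). Aldh16a1 had 1784 and 1073 (-0.50), and Aldh3b1, a membrane-bound enzyme, had 1560 and 869 (-0.61). These 3 values fall within the range of the 6 genes between -0.72 and -0.45. Aldh5a1, which encodes the succinate semialdehyde dehydrogenase of GABA breakdown, was lower still, with 514 and 237 reads (-0.88, -1.12 to -0.66). Aldh1l2, the mitochondrial counterpart of Aldh1l1, had 179 and 175 reads (0.20, -0.11 to 0.51), and 14.1% of its exon bases overlap D10Wsu102e, a gene on the other strand with 2012 and 2736 reads. Aldh8a1 had 3 and 4 reads, and Aldh3b2 and Aldh3b3 had 0 in both libraries, so that differences were not detectable at this depth. Over all 21 genes, 17 had at least 10 reads, and the interval lay below 0 in 13, beside 34.6% of all genes tested, and above 0 in 3, beside 34%.

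**Figure D3:**
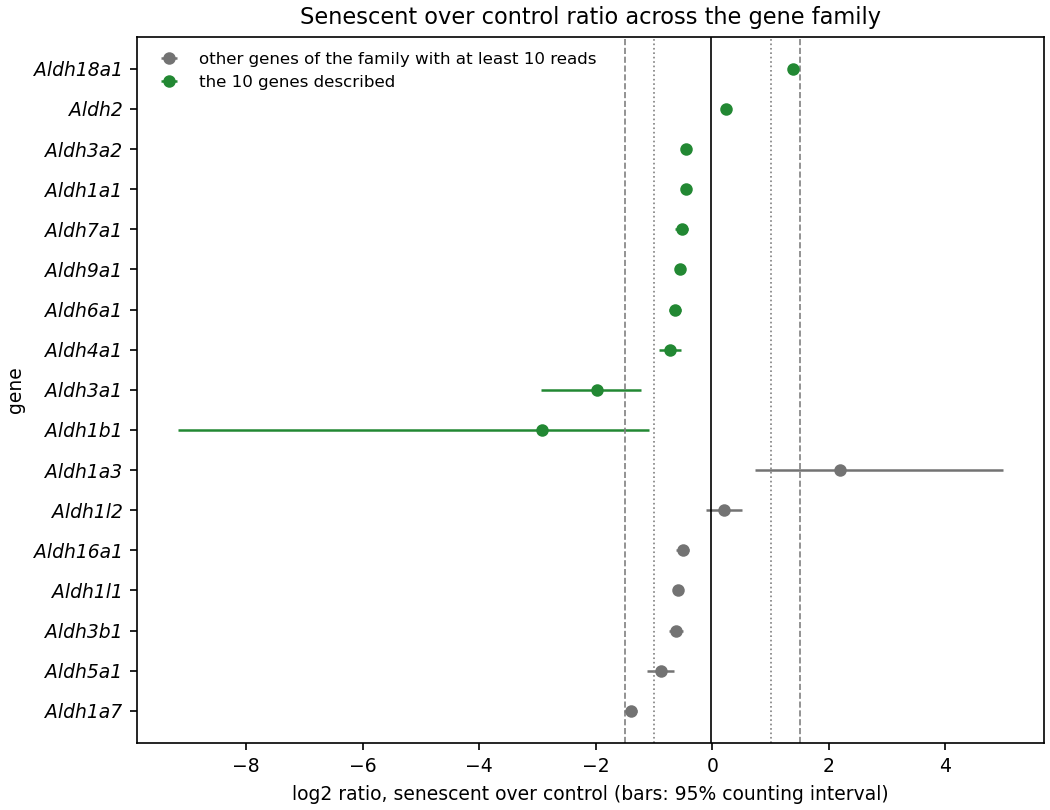
Log2 ratio of senescent over control for the 10 genes (green) and for the 7 other family genes with at least 10 reads (grey), with 95% Clopper-Pearson intervals; dashed lines mark 1.5, dotted lines 1, and the solid line the median of all genes at -0.02. Aldh18a1 stands at 1.39 and Aldh2 at 0.23, 6 of the 10 genes lie between -0.72 and -0.45, and the wide bars of Aldh1b1, Aldh3a1 and Aldh1a3 go with few reads.

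**Figure D4:**
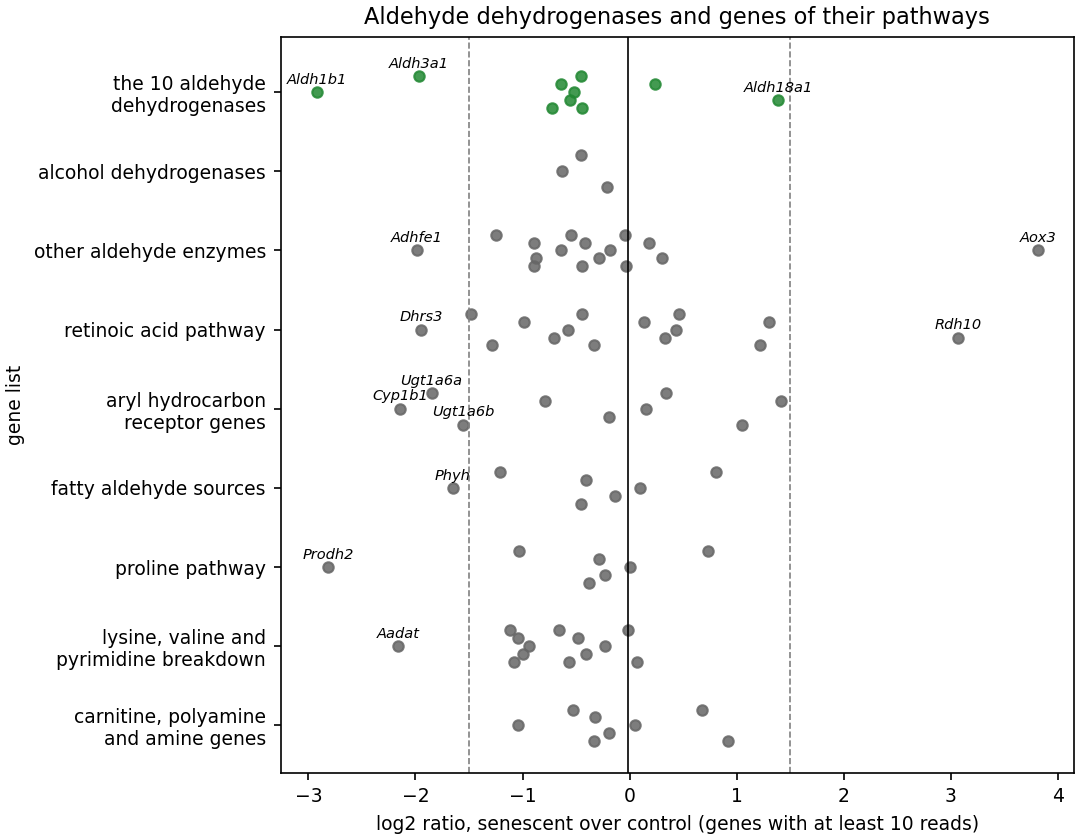
Log2 ratio of senescent over control for the 10 genes (green) and for the genes of 8 pathway lists with at least 10 reads (grey points, 1 per gene, spread vertically for legibility); dashed lines mark 1.5 and the solid line the median of all genes, and genes past 1.5 are named, as is Aldh18a1. Rdh10, at 3.07, is the highest gene with reads in both libraries, the position of Aox3 depends on the prior count because its control library had 0 reads, and most points of the lysine, valine and pyrimidine list lie left of the median line.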

How the data were processed

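The authors deposited a table of un-normalized counts of reads per Ensembl gene, with 1 column for each pooled poly(A) library. Per the submitters' processing notes in the labels, CASAVA, STAR, DESeq2 and edgeR were used with the mm10 build. The role of each tool, the annotation, the read length and the strand setting are not given in the sources used here. Columns were assigned by the initials of the sample titles. Of 35275 genes, 34490 (97.8%) were paired with a symbol. Positions, exons and transcripts came from GENCODE M21 (GRCm38, the same build as mm10), and promoters from RefSeq.

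Counts were scaled with TMM (edgeR 4.0.16, R 4.3.3), with a factor of 1.04 for control and 0.964 for senescent cells. DESeq2 1.42.0 size factors were an alternative. Log2 ratios (prior count of 1 in proportion to library size), Clopper-Pearson, Wilson and Poisson intervals were computed in Python 3.11.15 with scipy 1.17.1, and coding sequences were aligned with biopython 1.88. A gene without reads was given a floor of 3 reads, which equals 0.107 CPM (control) or 0.117 CPM (senescent). The calculation was tested on simulated counts that held counting error alone, with large changes in genes with more than a few reads. It did not try small changes, changes in genes with few reads, or spread between replicates. With 1 library per condition the spread between replicates could not be estimated, so neither edgeR's nor DESeq2's test was used. All 10 genes, the further Aldh genes, and of each list the genes past a limit and up to 3 with the most reads were to be named, and some of these are not reported here. The genes and lists were chosen with earlier results of these data known.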

Additional observations from a re-analysis of the deposited data

How the results depend on the processing

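The values were recomputed with other scalings (total counts, DESeq2, upper quartile), prior counts, read minimums, limits and transcript lengths. Intervals were also widened by an assumed coefficient of variation between biological samples. All 10 genes kept their direction under each scaling and prior count tried. Total-count scaling moved their median log2 ratio to -0.65 and the ratio of their summed level to 0.808. Upper-quartile scaling gave 0.847 for the latter and the length of the longest transcript 0.830. With at least 100 reads, 0 of the 10 genes were counted lower at 1.5 and 0 at 1, since Aldh3a1 and Aldh1b1 had fewer. A limit of 2 left 1 counted lower. A coefficient of variation of 0.4 left 0 higher past 1, because the widened interval of Aldh18a1 took in 0. Over all genes, 390 were counted higher and 805 lower. The higher count became 259 with a prior count of 5, 141 with at least 100 reads, 243 with a coefficient of variation of 0.4 and 219 at a limit of 2. The lower count became 395 with at least 100 reads and 460 at a limit of 2. No paired analysis was possible because each condition has 1 library, and for the same reason no library could be left out. Depth limits Aldh1b1, Aldh3a1, Aldh1a2, Aldh1a3, Aldh3b2, Aldh3b3 and Aldh8a1.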
